A study of Mus musculus with 16 samples.

Results

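H3K27me3 was profiled by automated CUT&RUN (AutoCUT&RUN) in haploid spermatids of H2A.B knockout (KO) and wild-type (WT) mice, and 2 KO libraries are compared here with 2 WT libraries, gene by gene. A gene was measured by the fragments with different coordinates whose midpoint lay within 2500 bp of its start, for every protein-coding gene of the GENCODE vM21 annotation on the 19 autosomes, which gave 20807 genes. The 4 libraries are 4 of the 16 in the study, whose other antibodies were against H3K4me3 and H3K9me3, with IgG as the control. The KO males were hemizygous for an X chromosome on which CRISPR/Cas9 editing had disrupted all 3 H2A.B genes (H2afb1, H2afb2, and H2afb3), and came from 1 edited strain crossed back to C57BL/6J. The WT males were their brothers with an intact X chromosome, and all animals were 2 months old and not mated. The study's methods give 2 sibling pairs of KO and WT males, and the replicate number is taken here to mark the pair. The titles of KO and WT libraries with the same number share number codes that differ between the replicates, so the pair and whatever those codes stand for cannot be told apart. Spermatids were sorted by DNA content from the testis with Hoechst and propidium iodide.

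H2A.B is a short variant of histone H2A made in the testis, and nucleosomes built with it protect less DNA and open more readily than canonical ones. H3K27me3 is the product of Polycomb repressive complex 2 (PRC2), whose enzyme EZH2 acts together with EED and SUZ12. In embryonic and germline cells it covers CpG islands of silent developmental genes, where Polycomb repressive complex 1 (PRC1) can bind it through its CBX proteins. In CUT&RUN, micrococcal nuclease tethered to the antibody cuts out the DNA around the mark, so the length of a released fragment tells whether about a whole nucleosome or less was protected.

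The libraries differed in depth more within a genotype than between genotypes. KO replicate 1 held 3773436 distinct autosomal fragments and WT replicate 1 held 2863163, against 685026 in KO replicate 2 and 196218 in WT replicate 2. A gene that carried the mark was therefore covered by a median of 196 and 141 fragments in replicate 1 of KO and WT, but by 18 and 6 in replicate 2. Between 60.2 and 81.1% of autosomal fragments in these 4 libraries repeated the coordinates of another one and were counted once. The 3 H2A.B genes themselves gave 0 fragments in each of the 4 libraries, so the labels of these libraries could not be checked on the edited genes. Comparisons of KO with WT are given for both pairs where a single fit or mean could rest on one. The sort was checked on H3K4me3, the mark of active gene starts, in the same windows. Of 30 spermatid genes 28 carried it at 5 times the average or more and at 2 times the IgG level or more (all but Izumo1 and Prm1). So did 16 of 18 meiotic prophase genes, 4 of 15 spermatogonial genes, and 1 of 21 genes of testis somatic cells (Inha). By the same limits 42.2% of all genes measured carried it. Since most meiotic prophase genes carried it too, these counts cannot tell spermatids from meiotic cells. The summed H3K4me3 level of the spermatid genes was 796 and 861 times the average in KO and 648 and 744 in WT. The meiotic prophase genes summed to 257 and 261 in KO and 214 and 271 in WT. Sums of the spermatogonial genes were 55.4 and 45.1 in KO and 69.7 and 40.8 in WT. Those of the somatic genes were 16.9 and 18.99 in KO and 16.2 and 15.2 in WT. No marker of these lists was at 0 over the 4 libraries. In cells pooled by a sort, fewer cells with the mark and less of it in each cell cannot be told apart.

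The 5 gene starts printed here are examples picked for extreme values within the gene lists below. They are 2 that carried the most H3K27me3 in their groups, 1 that carried it without any CG, and 2 that carried H3K4me3 in its place. Each line holds the 250 bases before the annotated start, 5′ to 3′ on the strand of the gene and taken from GRCm38 (the mm10 build of the files), with every CG dinucleotide in capitals.
Hoxc9: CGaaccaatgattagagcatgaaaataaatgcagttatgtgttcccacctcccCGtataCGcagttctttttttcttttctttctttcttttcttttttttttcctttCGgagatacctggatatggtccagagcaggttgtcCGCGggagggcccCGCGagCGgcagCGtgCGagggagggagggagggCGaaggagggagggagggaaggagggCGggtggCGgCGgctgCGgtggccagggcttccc
Sox14: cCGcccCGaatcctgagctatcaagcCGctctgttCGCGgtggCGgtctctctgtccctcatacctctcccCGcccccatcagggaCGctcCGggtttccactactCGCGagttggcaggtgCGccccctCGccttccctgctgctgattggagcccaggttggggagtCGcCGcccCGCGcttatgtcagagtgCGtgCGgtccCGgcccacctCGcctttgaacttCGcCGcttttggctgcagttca
Olfr474: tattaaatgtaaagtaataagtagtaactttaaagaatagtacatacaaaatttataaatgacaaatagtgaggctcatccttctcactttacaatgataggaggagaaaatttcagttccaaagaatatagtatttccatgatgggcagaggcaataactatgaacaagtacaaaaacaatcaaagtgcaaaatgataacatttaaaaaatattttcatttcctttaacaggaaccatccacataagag
Rpl35: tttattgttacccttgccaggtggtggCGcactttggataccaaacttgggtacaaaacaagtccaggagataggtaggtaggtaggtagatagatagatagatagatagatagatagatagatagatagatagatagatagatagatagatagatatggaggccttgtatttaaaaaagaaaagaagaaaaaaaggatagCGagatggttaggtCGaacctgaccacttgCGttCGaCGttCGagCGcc
Tssk1: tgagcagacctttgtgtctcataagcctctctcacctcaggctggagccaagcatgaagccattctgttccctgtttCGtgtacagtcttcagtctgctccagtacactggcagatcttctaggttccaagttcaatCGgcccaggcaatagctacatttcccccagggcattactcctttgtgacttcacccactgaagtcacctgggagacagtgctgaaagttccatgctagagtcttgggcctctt
These are chr15:102976189-102976438 (+ strand), chr9:99876171-99876420 (- strand), chr7:107954393-107954642 (+ strand), chr2:39005625-39005874 (- strand), and chr16:17893973-17894222 (+ strand), and all lie directly upstream of the first exon. The stretches hold 16 CG for Hoxc9 and 23 for Sox14, both regulators of embryonic patterning. The odorant receptor gene Olfr474 has 0 CG there, the ribosomal protein gene Rpl35 has 8, and Tssk1, a kinase gene of late spermatids, has 2. The mark stood at 98.2 times the autosomal average at Hoxc9, 91.8 at Sox14, and 21.0 at Olfr474, and at 0.248 and 0.238 at Rpl35 and Tssk1, where H3K4me3 reached 24.5 and 42.5 times its own average.

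H3K27me3 covered 4784 of the 20807 gene starts, or 23.0%, called marked here because their level over all 4 libraries was at least 5 times the autosomal average and at least 2 times that of IgG. The level of a gene is its number of fragments divided by the number that an even spread of the library over the autosomes would put in its window. These values chose the marked genes, so their levels are descriptions. The median marked gene stood at 24.9 times the average in KO replicate 1, 12.6 in KO replicate 2, 23.6 in WT replicate 1, and 14.6 in WT replicate 2, and the median unmarked gene at 0.254, 0.699, 0.167, and 0. The order therefore followed the replicate, with both libraries of pair 1 above both of pair 2 at marked genes. Just inside the limit stood Top1mt at 5.01, Tnfaip3 at 5.02, and Rasgef1c at 5.02 times the average, and just outside it Gria2, Tcn2, and Sds at 4.98, 4.98, and 4.99. Windows of the marked genes made up 0.958% of the autosomal sequence and held 27.1% of fragments in KO replicate 1 (95% Wilson interval 27.1 to 27.2), 15.5% in KO replicate 2, 24.8% in WT replicate 1, and 19.4% in WT replicate 2 (19.3 to 19.6). In IgG libraries they held 0.526 to 0.691%. A further 47 genes passed the limit on level but not that on IgG. The 12 highest of them, among them Gm10800, Gm10718, and Gm10717, stood at 427 to 2316 times the average in H3K27me3 and at 1664 to 7925 in IgG, and were left unmarked.

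The highest levels were found at homeobox and other patterning genes. By mean level over the 4 libraries, AW822073 and Duxf3, neighbors in the chromosome 10 Dux repeat array, led at 156 and 152 times the average. Gm36079 on chromosome 13 followed at 108, and then came Hoxc9, Bsx, Sox14, Hoxd12, Hoxa9, Sim2, Hoxa11, Pax9, and Ccnd2. This order differs between libraries, as Bsx, Sox14, and Ccnd2 stood above Hoxc9 in replicate 1 of both genotypes. The Dux genes exist as near-identical copies, so their counts are uncertain, and their windows also held H3K4me3 at 36.8 and 36.5 times its average. Hoxc9 (chromosome 15, start at 102976439) stood at 81.8 and 104 times the average in KO and at 68.4 and 139 in WT. Bsx (chromosome 9, 40874127), a homeobox gene of the hypothalamus, stood at 100.4 and 73.4 in KO and 84.7 and 110 in WT. Sox14 (chromosome 9, 99876170) stood at 106 and 85.3 in KO and at 78.6 and 97.7 in WT. KO and WT libraries overlapped at each of these 3 genes. Pax9 (chromosome 12, 56691767), needed for tooth and thymus formation, stood at 75.8 and 86.7 in KO and 61.7 and 117 in WT. Sim2, a regulator of neural and limb development, stood at 86.6 and 90.9 in KO and 68.4 and 115 in WT. Ccnd2 (chromosome 6, 127152193) encodes cyclin D2, which drives dividing spermatogonia through G1, and stood at 92.6 and 72.0 in KO and 74.5 and 100.1 in WT. These genes overlapped between the genotypes as well, with WT replicate 2 the highest library at all 3.

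**Figure D1:**
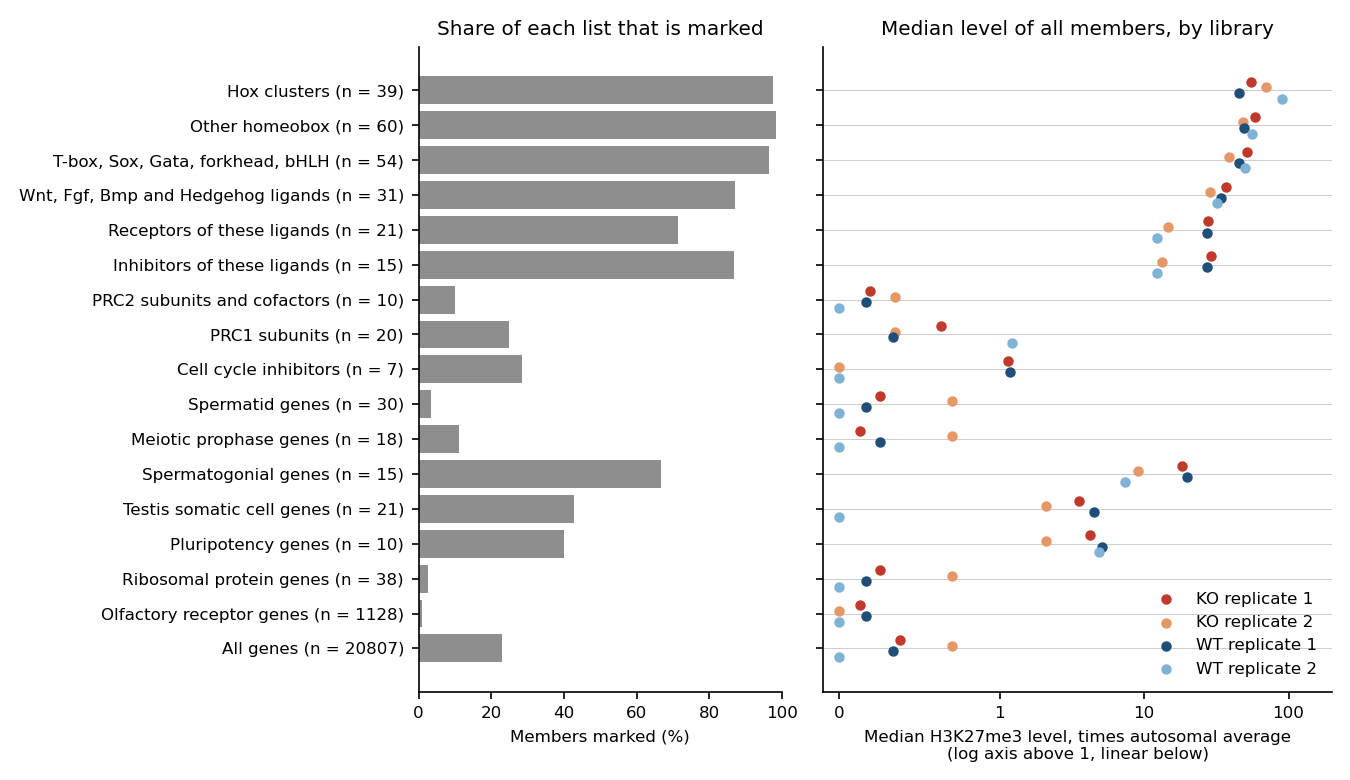
H3K27me3 in 16 gene lists and in all 20807 genes. Left, percent of measured members that were marked; right, median level over all measured members in each library, in times the autosomal average, on an axis that is linear below 1 and logarithmic above. The lists of patterning genes lie at 12.2 to 90.3 in each library, and those of spermatid, ribosomal protein, and olfactory receptor genes at 0.699 or lower.

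Most genes on the lists of embryo patterning regulators and signals carried the mark. These lists were chosen with earlier results of these data known. Their counts therefore describe the listed genes and do not measure the share of a whole gene family. Of the 39 Hox genes 38 were marked, the exception being Hoxa4 at 1.81 times the average, and the list had a median of 66.9. Of 60 other homeobox genes 59 were marked, with Pax9 and Evx2 at the top and Alx1 as the exception at 0.925, where H3K4me3 stood at 21.4. Of 54 T-box, Sox, Gata, forkhead, and basic helix-loop-helix genes 52 were marked, led by Sox14 and the oligodendrocyte regulator Olig2, and the exceptions Sox11 and Sox18 stood at 4.75 and 2.85. The share of all genes that were marked, 23.0%, is the background for these counts. The ligands of the Wnt, Fgf, Bmp, and Hedgehog pathways were marked at 27 of 31 genes, led by Wnt3 and Gdf6. Their receptors were marked at 15 of 21 genes, led by the Wnt receptor genes Fzd10 and Fzd7, and their secreted inhibitors at 13 of 15, led by the Wnt inhibitor Dkk1 and the Bmp antagonist Chrd. Median levels were 34.8 times the average in ligands, 23.6 in inhibitors, and 20.7 in receptors. Wnt3 (chromosome 11, start at 103774150) stood at 81.5 and 70.6 in KO and 72.3 and 63.5 in WT. Fzd10 (chromosome 5, 128600844) stood at 59.7 and 28.0 in KO and 47.5 and 58.6 in WT. KO lay above WT in both pairs at Wnt3, and the genotypes overlapped at both genes.

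At the Hox genes the median was 54.9 and 45.2 times the average in replicate 1 of KO and WT and 69.9 and 90.3 in replicate 2, so replicate 2 was the higher one in both genotypes, whereas it was the lower one at the median marked gene. The other homeobox genes showed 58.8 and 49.3 in replicate 1 and 48.3 and 56.2 in replicate 2. These are descriptions of 2 replicates that also differed in depth, and what part depth took in them was not tested.

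Polycomb genes and cell cycle inhibitor genes were marked less often than the patterning lists. Beside 23.0% of all genes, PRC2 genes were marked at 10%, PRC1 genes at 25%, and cell cycle inhibitor genes at 28.6%. The PRC1 and inhibitor shares thus lay near that of all genes. Among 10 genes of PRC2 and its cofactors 1 was marked, Phf19 (chromosome 2, 34914026), which encodes a PRC2 accessory protein, at 31.2 and 21.7 times the average in KO and 27.4 and 22.0 in WT. The core genes Ezh2, Eed, and Suz12 stood at 0.312, 0.217, and 0.0736 and carried H3K4me3 at 19.7, 18.9, and 18.6 times its average. Of 20 PRC1 genes 5 were marked, among them Kdm2b and Pcgf2. Kdm2b, whose product binds unmethylated CpG islands, held both marks, with H3K27me3 at 24.5 and 13.99 in KO and 22.9 and 36.6 in WT and H3K4me3 at 28.4. Of 7 cell cycle inhibitor genes 2 were marked. Cdkn1b, which encodes p27, stood at 59.0 and 36.4 in KO and 49.0 and 48.8 in WT. Cdkn1c, which encodes p57, stood at 13.3 and 11.2 in KO and 14.2 and 17.1 in WT and also held H3K4me3 at 13.8.

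Among germ cell genes the mark was frequent at those of spermatogonia and rare at those of later stages. Of 15 spermatogonial genes 10 were marked, among them the stem cell receptor genes Gfra1 and Ret, Zbtb16 (which encodes PLZF), and Kit, with Gfra1 at 75.04 and 38.5 times the average in KO and 64.3 and 44.0 in WT. Of 18 meiotic prophase genes 2 were marked, Stra8 and Msh5. Stra8 is induced by retinoic acid as germ cells enter meiosis, and it stood at 39.9 and 21.0 in KO and 44.0 and 58.6 in WT with H3K4me3 at 1.28. Of 30 spermatid genes 1 was marked, the heat shock protein gene Hspa1l, at 13.0 and 11.9 in KO and 15.6 and 24.4 in WT, where the window overlaps that of another gene and H3K4me3 stood at 28.4. Prm2, which encodes a protamine, had 0 H3K27me3 fragments in each of the 4 libraries, and Tnp1, which encodes a transition protein, stood below the limit at 3.68. Genes of testis somatic cells were marked at 9 of 21, led by Wt1 at 79.2 and 65.0 in KO and 66.1 and 85.5 in WT and by Nr5a1, both regulators of gonad formation. Of 10 pluripotency genes 4 were marked, Tfap2c, Dppa3, Prdm14, and Tdgf1. Tfap2c and Dppa3, both genes of early germ cells, stood at 78.1 and 76.2 and at 49.0 and 32.2 in KO, and at 62.1 and 83.0 and at 38.5 and 31.7 in WT.
Among genes used as a contrast, 1 of 38 ribosomal protein genes (Rpl3) was marked and 11 of 1128 olfactory receptor genes (0.975%), led by Olfr474 and Olfr214.
Over the replicate 1 libraries alone 5073 genes were marked, 4755 of them shared with the set above, and the lists changed by at most 3 members, as at the spermatogonial genes with 13 of 15.

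Counted along each chromosome, the marked genes formed 3070 runs of neighbors, 2028 of which were single genes, and 55 runs of at least 5 genes held 376 of the 4784 marked genes. The longest held 22 genes of the protocadherin alpha and beta clusters, and a second held 21 of the gamma cluster. All 4 Hox clusters formed such runs, with 11 genes from Evx2 to Hoxd1 on chromosome 2, 11 from Hoxb13 to Skap1 on chromosome 11, 10 from Hoxc13 to Smug1 on chromosome 15, and 10 from Hoxa5 to Evx1 on chromosome 6. Median levels in the 4 runs were 60.0, 61.8, 71.7, and 65.1 times the average. A run of 14 genes at the interferon locus of chromosome 4 reached a median of 53.4, and runs of 13 and 10 histone genes on chromosome 13 reached 16.4 and 14.2. Members of such clusters share windows or nearly identical sequence and are not independent of each other. Of all marked genes 13.0% shared part of the window with another gene, against 19.8% of all genes measured. Between 17.6% of genes on chromosome 7, which holds many olfactory receptor genes, and 34.5% on chromosome 18 were marked.

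The base composition of the start, which the definition of a marked gene did not use, went with the mark differently with and without H3K4me3. Starts rich in CG were marked more often where H3K4me3 stayed below the limits above, and less often where it passed them. A start was called CG rich where the kilobase around it had at least 50% G and C and a ratio of observed to expected CG of at least 0.6. Of marked starts 51.4% and of unmarked starts 44.0% were CG rich. Of the 3341 CG-rich starts without H3K4me3, 63.0% were marked, against 5.79% of the 6171 CG-rich starts with H3K4me3. Of CG-poor starts 23.9% without H3K4me3 and 9.37% with it were marked. The share of CG-rich starts was 39.7% among the 1009 marked genes at 5 to 10 times the average, 68.2% among the 595 at 40 to 80 times, and 52.6% among the 19 at 80 times or more. Both marks stood together at 601 marked genes, or 12.6%, while 51.0% of unmarked genes carried H3K4me3. At these 601 genes the median H3K27me3 level was 16.4 and 9.09 in KO and 16.4 and 12.2 in WT, below the 26.7 and 13.3 in KO and 25.1 and 14.7 in WT at marked genes without H3K4me3. H3K9me3, the mark of constitutive heterochromatin, reached its own limit at 60 marked genes, or 1.25%, and at 2.3% of unmarked genes. The genes share libraries and neighborhoods, so these shares are descriptions.

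**Figure D2:**
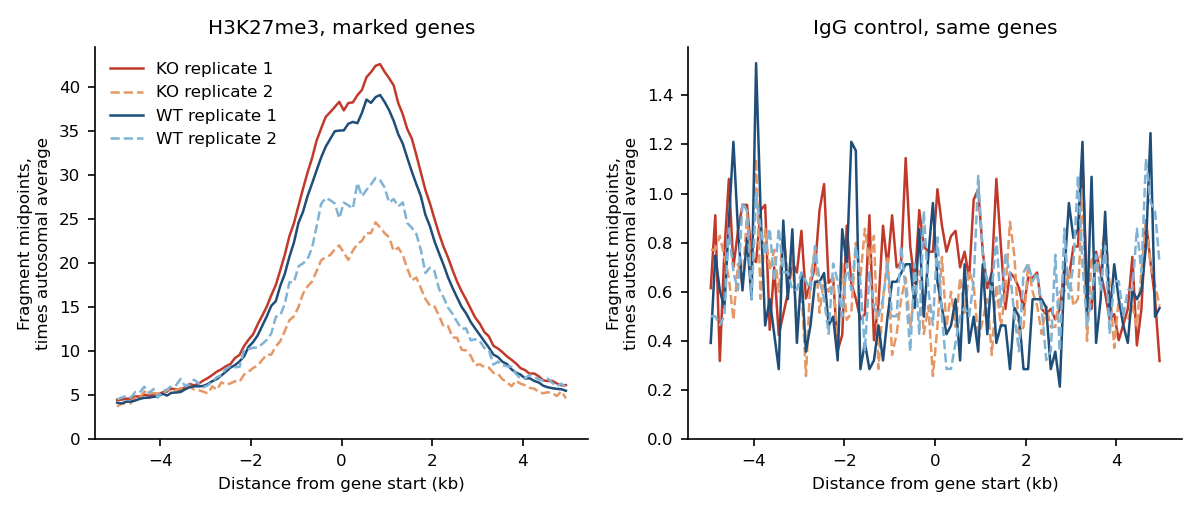
Density of fragment midpoints around the starts of the 4784 marked genes, in times the autosomal average, in bins of 100 bp; solid lines are replicate 1 and dashed lines replicate 2, KO in red and WT in blue. H3K27me3 (left) is highest 750 to 850 bp after the start in each of the 4 libraries, and IgG over the same genes (right, a smaller scale) peaks at 1.53 times the average or lower.

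The mark formed a broad hill over the start of marked genes. It was highest 850 bp downstream in replicate 1 of both genotypes, at 42.7 times the average in KO and 39.2 in WT, and 750 bp downstream in replicate 2, at 24.7 in KO and 29.7 in WT. At 5 kb upstream the density had fallen to 3.69 to 4.52 and at 5 kb downstream to 4.63 to 6.14. Density within 500 bp of the start exceeded that at the edges of the window by 0.986 and 0.890 on the log2 scale in KO and by 1.02 and 0.902 in WT. KO minus WT was -0.03 in pair 1 and -0.01 in pair 2, below the spread between replicates of 0.07 (exact two-sided permutation test, p = 0.667). With 2 libraries against 2 such a test cannot give a p below 0.333.

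The study asked whether the loss of H2A.B changes chromatin in spermatids, and for H3K27me3 coverage few genes separated KO from WT. In limma-voom with the sibling pair as a block, 1 of 6780 genes with at least 20 fragments was called at an adjusted p under 0.05 (0.0147% of those tested), and it was not a marked gene. Of the 4784 marked genes, all of which entered, 0 were called, and 18 had an unadjusted p under 0.05, among 114 over all genes tested. Without KO replicate 1, 8 genes were called, 5 of them marked and all 8 lower in KO, and without any other library 0 or 1 was called, none of them marked. Across the 4784 marked genes the log2 levels of KO and WT correlated with r of 0.974 in pair 1 and 0.738 in pair 2. Between replicates of a genotype r was 0.836 in KO and 0.716 in WT. KO replicate 2 with WT replicate 1 gave 0.83, and KO replicate 1 with WT replicate 2 gave 0.73. All these libraries share antibody and base composition and differ in depth. Marked sets built from either genotype alone had 4745 genes in KO and 4840 in WT. The 4576 shared genes are 96.4% of the first and 94.6% of the second. Sets built from single libraries shared 98.3% of the KO genes and 96.3% of the WT genes in pair 1. In pair 2 they shared 88.8% of the KO genes and 86.4% of the WT genes.

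**Figure D3:**
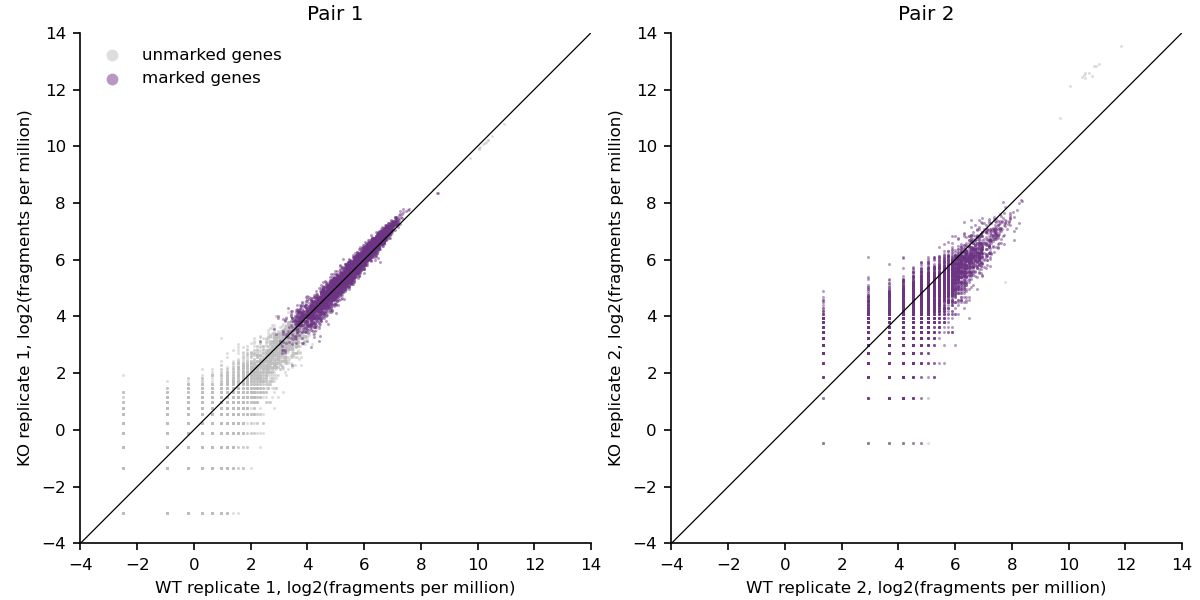
Level of every gene in KO against WT, as log2 of depth-scaled fragments (FPM) with 0.5 fragments added, for pair 1 (left) and pair 2 (right); purple points are marked genes, gray points unmarked ones, and the line marks equal levels. Marked genes lie close to the line in pair 1 and spread widely in pair 2, where WT replicate 2 had a median of 6 fragments at a marked gene.

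The pairs differed in direction at marked genes. The median KO minus WT over the marked genes was 0.10 on the log2 scale in pair 1 and -0.38 in pair 2, with an SD over genes of 0.23 and 0.83. The share of all fragments that fell in windows of marked genes gave a KO minus WT of 2.36 percentage points in pair 1 and -3.93 in pair 2, with a mean of -0.785 against a spread of 6.39 between replicates (exact two-sided permutation test, p = 1). Beside this, windows of unmarked genes held 2.84 and 7.53% of fragments in KO and 3.07 and 3.64% in WT, and KO replicate 2 was the highest. The 47 unmarked windows over the level limit, where IgG was high, held 35.5 and 74.4% of these fragments in KO and 36.1 and 46.2% in WT. What part this took in the difference was not tested.
The lists moved with their pair. The Hox genes had a median KO minus WT of 0.23 in pair 1 and -0.43 in pair 2, other homeobox genes 0.28 and -0.37, Wnt, Fgf, Bmp, and Hedgehog ligands 0.15 and -0.29, and spermatogonial genes 0.18 and -0.22, in each case over marked members. In these 4 lists 0 members were called. At marked genes 889 were higher in KO in both pairs and 1005 lower in both.

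The single called gene was Rps29 (chromosome 12, start at 69159186), which encodes a ribosomal protein. Its level was 0.381 and 17.5 times the average in KO and 2.51 and 102 in WT, from 3, 25, 15, and 42 fragments. KO was lower in both pairs, by 2.54 ± 0.49 on the log2 scale (moderated SE from limma-voom, n = 2 pairs, adjusted p = 0.00178). KO replicate 2 was still above WT replicate 1. IgG stood at 22.3 and 27.3 times the average in KO and 23.8 and 64.9 in WT in the same window, and WT replicate 2 was the highest in IgG as well. Its part in the H3K27me3 difference was not tested. Without the pair as a block the call was lost (limma-voom, adjusted p = 0.9998) and 0 genes were called, with 52 at an unadjusted p under 0.05. The log2 difference of Rps29 was then -1.39, and it was -0.27 without WT replicate 2 (adjusted p = 1). The call was also lost at a difference of -2.96 with every deposited fragment (adjusted p = 0.216), -1.70 with quantile normalization (0.878), -2.54 with a minimum of 1 fragment (0.112), and -2.54 with limma-trend (0.266), so the 2 genes called with every fragment and the 1 called under quantile normalization, a marked gene, were other genes. Without KO replicate 1, in a fit that 3 libraries allow only without the block, the value of Rps29 turned to 2.22 (adjusted p = 0.183).
Since 0 genes were called as higher in KO, the rule named the 3 marked genes nearest to a call in that direction only, and lower ones short of a call are not named. Plcd1, a phospholipase C gene, stood at 40.2 and 32.2 in KO and 34.0 and 2.44 in WT, and WT replicate 2 held 1 fragment there. Cfap58, a gene of the sperm flagellum, stood at 8.76 and 6.99 in KO and 5.86 and 0 in WT, and Lgr4, a receptor gene for R-spondins, at 8.38 and 6.99 in KO and 5.69 and 0 in WT. Each was higher in KO in both pairs with an adjusted p of 1 (limma-voom), and WT replicate 2 held 0 or 1 fragments at all 3.

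Fragment length differed between the genotypes at marked genes, with more small fragments in KO in both pairs. Small fragments, up to 120 bp, are shorter than a nucleosome, and large ones, from 150 bp, hold a nucleosome or more. Small fragments made up 13.5% (95% Wilson interval 13.4 to 13.5) and 21.9% (21.6 to 22.1) of those at marked genes in KO, against 8.81% (8.75 to 8.88) and 12.5% (12.2 to 12.8) in WT. On the log2 scale, small over large gave -2.66 and -1.79 in KO and -3.34 and -2.77 in WT, so both KO libraries lay above both WT libraries. KO exceeded WT by 0.68 in pair 1 and 0.98 in pair 2. The mean was 0.83, against a spread between replicates of 0.52 and an SD of 0.21 between the pair differences. An exact two-sided permutation test, which ignores the pairs, gave p = 0.333, the smallest that 2 against 2 can give. With every deposited fragment counted, the values were -3.08 and -1.95 in KO and -4.11 and -2.86 in WT. KO was still higher in both pairs, by 1.03 and 0.91, but the groups overlapped (p = 0.667 by the same exact permutation test).

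**Figure D4:**
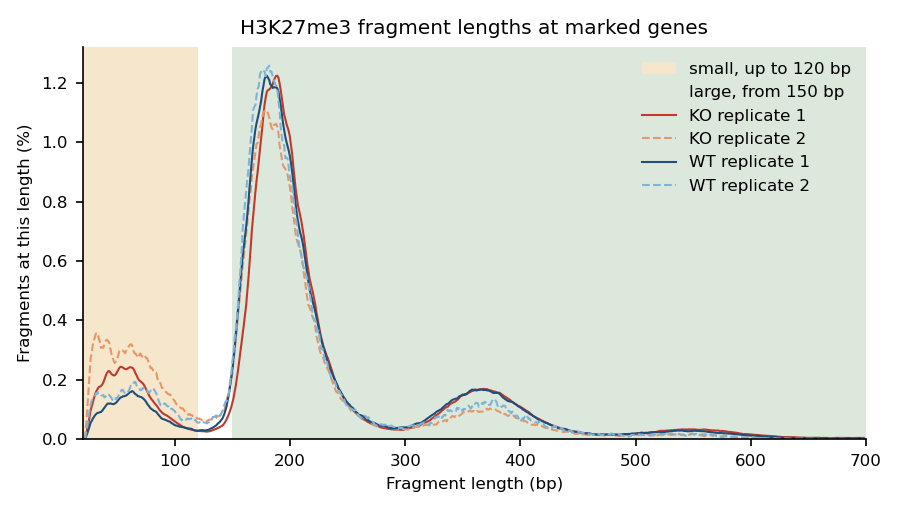
Lengths of H3K27me3 fragments in windows of marked genes, as the percent of fragments at each length with a running mean over 5 bp, for each of the 4 libraries. The tallest peak lies at 179 to 187 bp in each library, and at lengths up to 120 bp both KO curves hold more than the WT curve of the same replicate.

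The length of the nucleosome fragment itself did not separate the genotypes. The most frequent length between 120 and 250 bp at marked genes was 187 and 179 bp in KO and 183 and 179 bp in WT, a difference of 4 bp in pair 1 and 0 in pair 2 (spread between replicates 4.47 bp, exact two-sided permutation test, p = 1). Fragments of 300 bp or more made up 18.5 and 11.2% in KO and 18.1 and 13.3% in WT at marked genes, and followed the replicate.

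The excess of small fragments was also present away from marked genes. In windows of unmarked genes the log2 ratio was -1.96 and -1.32 in KO and -2.57 and -1.38 in WT, with KO higher by 0.62 in pair 1 and 0.05 in pair 2. Without the 47 windows over the level limit, left out after seeing the data, it was -1.94 and -0.42 in KO and -2.69 and -1.16 in WT, with KO higher by 0.75 and 0.73. Outside of all gene windows the log2 ratio was -2.26 and -0.62 in KO and -2.95 and -1.31 in WT, with KO higher by 0.69 in both pairs. In each of these sets of regions KO replicate 1 lay below WT replicate 2, so the groups overlapped. In IgG libraries KO was higher by 0.55 and 0.46 outside gene windows and by 0.31 and 0.42 in windows of unmarked genes (0.51 and 0.46 without the 47), while KO minus WT was -0.41 and 0.35 in windows of marked genes, where these libraries held 740 to 1633 fragments. In H3K4me3 libraries KO was higher by 0.67 and 0.996 in windows of marked genes and by 0.67 and 0.95 in those of unmarked genes, in pairs 1 and 2. For H3K27me3 the KO effect at marked genes minus that at unmarked genes was 0.06 in pair 1 and 0.92 in pair 2. The mean was 0.49, against a spread between replicates of 0.33 and an SD of 0.61 between the pairs (exact two-sided permutation test, p = 0.333). Without the 47 windows this difference of effects was -0.07 and 0.25, a mean of 0.09 (exact permutation test, p = 1). With every deposited fragment it was 0.14 and 0.38, a mean of 0.26 (p = 0.667 by the same exact test). With libraries thinned to equal numbers it was -0.03 and 0.92, a mean of 0.45 (p = 0.667, likewise exact). The excess was therefore not shown to be particular to genes with the mark.

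**Figure D5:**
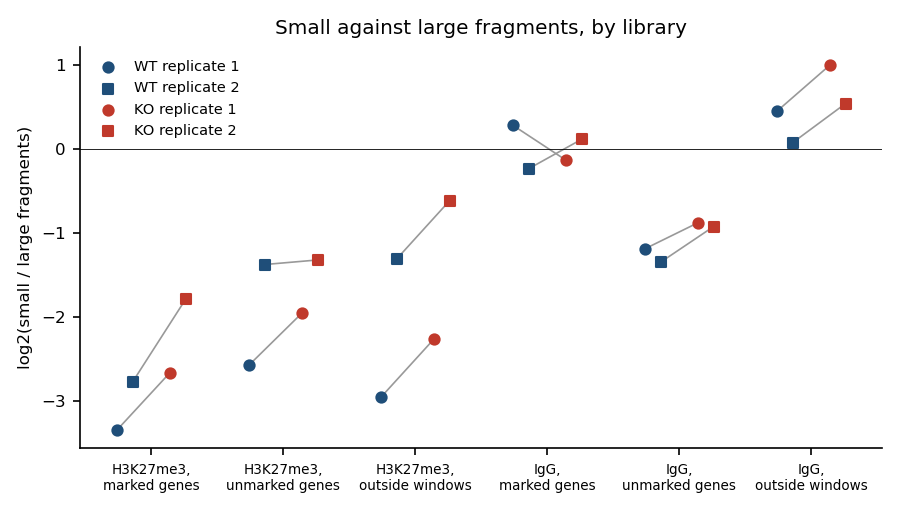
Small over large fragments on the log2 scale in each library, in windows of marked genes, in windows of unmarked genes, and outside of all windows, for H3K27me3 and IgG; gray lines join the WT and KO library of a sibling pair. KO lies above WT in both pairs in each set of regions except for IgG at marked genes.

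At the level of single genes the excess was spread over the marked genes. Of the 4687 marked genes whose libraries held 10 or more fragments of either size class in sum, 90.2% had a higher ratio in KO in pair 1 and 65.8% in pair 2, and 2791 were higher in both pairs while 155 were lower in both. The median gene was higher by 0.66 and 0.65 on the log2 scale. Among the 129 marked genes with at least 5 small fragments in each library, KO was higher at 100% in pair 1 and 57.4% in pair 2, with medians of 0.65 and 0.16. This filter acts on the small fragments themselves and so favors genes that had many of them in WT replicate 2, which lowers pair 2 by construction. The correlation of the gene values between the pairs was -0.03, where the median gene had 26, 4, 12, and 1 small fragments in KO replicates 1 and 2 and WT replicates 1 and 2. The groups of genes by level were alike in pair 1: at 5 to 10 times the average the log2 ratio was -2.56 in KO and -3.29 in WT, and at 40 to 80 times it was -2.66 and -3.32. In pair 2 the values were -1.59 and -2.53 at 5 to 10 times, -1.78 and -2.75 at 40 to 80 times, and -1.58 and -3.23 in the 19 genes at 80 times or more, where pair 1 had -2.68 and -3.38. The Hox genes had medians of 0.59 and 0.92, other homeobox genes 0.71 and 0.88, and ligands 0.51 and 1.22, in pairs 1 and 2. Receptors had 0.67 and 1.03 and inhibitors 0.60 and 0.25, beside 0.66 and 0.63 over all marked genes. Medians over genes depend on the 0.5 added to each count where a library held few fragments, as WT replicate 2 did. With fragments pooled over all marked genes, KO was higher by 0.68 and 0.98. Whether the lists differ from other marked genes was not tested.

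Against the median of each library, few genes stood out in the ratio. In limma on the log2 ratio per gene, weighted by counting variance, centered on each library's median, and with the pair as a block, 2 of 5164 genes were called (0.0387%), 0 higher and 2 lower in KO, and 0 of them were marked. A total of 233 genes, 200 of them marked, had an unadjusted p under 0.05. Without the centering, which leaves the shift of the whole library in, 457 genes were called, all 457 higher in KO and 432 of them marked. With the centering but without KO replicate 1, 103 genes were called, 16 higher and 87 lower, 90 of them marked, and without KO replicate 2, 10 were. The 2 called genes, Gm10718 and Gm10717 on chromosome 9 (starts at 3023547 and 3025417), are those with far more IgG than H3K27me3 named above, and their windows overlap. Gm10718 held 756 and 930 small fragments in KO and 571 and 63 in WT beside 4126 and 4072 large ones in KO and 3459 and 338 in WT. Relative to the library its ratio was lower in KO by 0.51 ± 0.07 on the log2 scale (moderated SE from limma, n = 2 pairs, adjusted p = 0.0067). That of Gm10717 was lower by 0.45 ± 0.07 (moderated SE from limma, n = 2 pairs, adjusted p = 0.0298). Both were higher in KO without the centering, by 0.16 and 0.22, and without WT replicate 1, by 0.13 and 0.04. Without KO replicate 1 they stood at -1.12 and -1.09. Both calls were lost in limma without the block (adjusted p = 0.9986), within 1000 bp (0.4765), and without counting weights (0.973). They were also lost with a minimum of 1 fragment (0.1315 and 0.583), and that of Gm10717 with every deposited fragment (0.122).
The rule for naming genes took marked genes short of a call only in the direction with 0 calls, which was higher in KO. Myh11, the smooth muscle myosin gene of peritubular cells (chromosome 16, start at 14291372), held 46 and 4 small fragments in KO and 4 and 0 in WT, beside 227 and 20 large ones in KO and 200 and 4 in WT. Its ratio was higher by 2.27 ± 0.45 (moderated SE from limma, n = 2 pairs, adjusted p = 0.171), mostly from pair 1, with 2.52 against 0.27 in pair 2. The fit weights libraries by expected counts, so 2.27 is not the plain mean of the pairs. Kirrel2, a nephrin family gene, held 51 and 5 small fragments in KO and 5 and 0 in WT, and Trarg1, a gene of glucose transporter traffic in fat cells, 8 and 4 in KO and 0 and 1 in WT, both with an adjusted p of 0.789 (limma). Kirrel2 was higher by 1.61, with 1.78 in pair 1 and 0.19 in pair 2, and Trarg1 by 3.22, with 3.75 and 0.43. In limma, Myh11 passed the limit without KO replicate 2 (adjusted p = 0.000374), with every deposited fragment (0.0428), with size limits of 100 and 140 bp (0.00992), and with a minimum of 1 fragment (1.12e-06). Kirrel2 passed without KO replicate 2 (0.0415) and with a minimum of 1 fragment (0.00189), and Trarg1 with a minimum of 1 fragment (0.00676). All 3 passed without the centering, and Myh11 with weights from observed counts (0.0253). Without WT replicate 1 Trarg1 turned to -0.34.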

How the data were processed

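H3K27me3, H3K4me3, H3K9me3, and IgG fragments were measured by AutoCUT&RUN in sorted spermatids, with 2 KO and 2 WT libraries each. The deposited values are fragment lists, other than counts or signal: the authors aligned paired-end reads of 25 bp to mm10 with Bowtie2 (version 2.3.4.3 per the labels) and listed the start, end, and length of each mapped fragment. The study's methods state that PCR duplicates were removed, yet identical coordinates recur, so each set of coordinates was counted once per library. Repeats can also be separate molecules, which this loses where coverage is high.

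Gene windows, levels, and marked genes are defined where the text first uses them. Coverage was tested with limma-voom, and small over large fragments (log2, 0.5 added to each) with limma, in R 4.3.3 with limma 3.58.1, on genes with at least 20 fragments, or at least 10 small and 10 large ones, at a Benjamini-Hochberg adjusted p under 0.05. Ratio weights used counts expected from gene and library totals, since weights from observed counts called more unchanged genes when both were tested on simulated data. This was chosen after the files were seen. The SEs of single genes are limma's moderated ones, which borrow variance over all genes tested and weight each library. They do not measure the spread of the pair values. Single values were tested by exact permutation (SciPy 1.17.1), which ignored the pairs. Their spread between replicates is the SD within a genotype, pooled over KO and WT, and likewise ignores the pairs. Intervals cover counting error only, and a fragment without a molecular identifier need not be an independent molecule.

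The replicate number was taken to mark a sibling pair, from the study's methods and the number codes that same-numbered libraries share in their titles. The pair was kept as a block. Same-numbered KO and WT libraries deviated together from their group means (r = 0.339 over marked genes). Replicate 1 was the deeper one in both genotypes, so this r cannot tell a sibling pair from shared depth. Genes were named by rule: the 12 with the highest level, up to 5 called genes a direction, by adjusted p, the 3 marked genes nearest to a call where a direction had 0 calls, the 2 highest members of a list, and the 3 genes on either side of the limit. Exceptions and list members beyond these were chosen after their values were seen. Genes and lists were chosen with earlier results of these data known. Alternatives covered the block, each library left out, every deposited fragment, windows of 1000 bp, filters, scaling, weights, and size limits. Chromosome X was used only for the edited genes, and the H3K9me3 libraries only for shares of genes with that mark. A list member that the rule would name is not reported here.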

Additional observations from a re-analysis of the deposited data

How the results depend on the processing

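Genes called for coverage numbered 1 by the main test, 0 with no replicate block, 0 with a minimum of 1 fragment, 0 for marked genes alone, 0 by limma-trend, and 2 with every deposited fragment; leaving out 1 library, without the block, gave 0 to 8, with the 8, all lower, without KO replicate 1. Genes called for the size ratio numbered 2, against 0 with no replicate block, 0 within 1000 bp, 0 for marked genes alone, 0 without counting weights, 4 with every deposited fragment, 5 with small up to 100 bp and large from 140 bp, 55 (all higher) with a minimum of 1 fragment, and 457 (all higher) without centering; leaving out 1 library gave 0 to 103, with 16 higher and 87 lower without KO replicate 1 and 10 without KO replicate 2. Weights from observed counts, an alternative chosen after seeing the data, gave 14. The fit with the replicate block is the one reported, and without it the pairing no longer enters: 0 genes were called in either test. Rps29 turned to 2.22 without KO replicate 1, Trarg1 to -0.339 without WT replicate 1, Gm10718 to 0.128 and Gm10717 to 0.0429 without WT replicate 1. Without centering, which adds the shift of the whole library to each gene, Gm10718 and Gm10717 had 0.162 and 0.223 by construction. The KO effect on the ratio at marked over unmarked genes was 0.493, 0.0622 without replicate 2, 0.924 without replicate 1, 0.261 with every deposited fragment, and 0.0883 without the 47 unmarked windows over the level limit, which were left out only once the values had been seen. At a minimum of 1 fragment the median log2 difference in the size ratio over genes was 0.275 after centering, against -0.0285 in the main fit. Apart from the centering, the cause of these changes was not tested. The 11 alternatives for the number of marked genes (3775 to 5411, 5073 of them for replicate 1 alone, added after seeing the data) stayed within 1.5 times of 4784. The 8 for the ratio at marked genes, 7 for the share in marked windows, 6 for the most frequent length, and 6 for the enrichment at the start moved by less than the spread between replicates. Each of these counts includes the replicate block, which gives the main difference again by construction. The share in marked windows changed sign, from -0.785 percentage points to 2.36 without replicate 2, within a spread of 6.39. Depth limits pair 2: WT replicate 2 held 0 fragments at 96 marked genes and KO replicate 2 at 6, so a change at a single gene there was detectable only where coverage was high.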
